A study of Homo sapiens with 6 samples.

Results

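The genes described are 9 regulators of the epithelial-mesenchymal transition (EMT), namely ZEB1, ZEB2, SNAI1, SNAI2, TWIST1, ESRP1, ESRP2, OVOL1 and GRHL2. They were chosen by symbol, and all 9 were listed, each on a single row, among the 24551 genes of the expression files. Polyadenylated RNA had been sequenced in 6 libraries, 3 from the DU145 line of prostate cancer, which was derived from a metastasis in the brain, and 3 from the 769-P line of clear cell renal carcinoma. Each line gave 1 library from cells given a control siRNA (labelled NC), 1 from cells given SPOP siRNA 1 and 1 from cells given SPOP siRNA 2. SPOP encodes the substrate adaptor of a cullin E3 ubiquitin ligase. All 6 libraries came from transfected cells, so every comparison between the lines is between transfected cultures, and each tissue is represented by a single cell line.

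EMT is the process by which epithelial cells lose their junctions and polarity and take on a migratory, matrix-producing state. ZEB1, ZEB2, SNAI1, SNAI2 and TWIST1 are transcription factors that drive it, and the ZEB and SNAI zinc finger proteins repress epithelial genes such as CDH1 by binding E-boxes in their promoters. OVOL1 and GRHL2 are transcription factors of the epithelial state that oppose the ZEB factors, and ESRP1 and ESRP2 are RNA-binding proteins that direct the epithelial pattern of splicing. The ZEB factors and members of the epithelial group repress each other, and the levels of both sides are commonly read together. Carcinoma lines can express genes of both programs.

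Levels are given in FPKM (fragments per kilobase of transcript, relative to all fragments mapped), which is a quantity per length and allows genes to be compared. In the files the number of reads behind a value is not given, so how precise a single value is cannot be told. A listed 0 was read only as a listed 0, because genes that every cell uses, such as RPS18, CSNK2B and DDX39B, were also listed at 0 in all 6 libraries. Differences and changes were taken on the log2(FPKM + 1) scale, which understates them for genes at low levels. Tests were run with limma across the 11865 genes whose 6 libraries averaged 1 FPKM or more, with Benjamini-Hochberg adjustment of the p-values. Of the 9 regulators, 4 (ZEB1, SNAI1, SNAI2 and ESRP2) passed this filter.

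The libraries were checked on the targeted gene first. SPOP stood at 16.1 FPKM in the control of DU145, 2.77 with siRNA 1 and 2.96 with siRNA 2. The same libraries of 769-P had 11.6, 1.53 and 1.39 FPKM. Each SPOP siRNA left between 12% and 18.4% of the control level, which goes with the labels. The renal markers PAX8, PAX2 and LHX1 were higher in every 769-P library than in any of DU145, and PAX8, a kidney transcription factor, was at 106 FPKM or above in 769-P and at 1.47 or below in DU145. CA9, which encodes a carbonic anhydrase induced in clear cell renal carcinoma, was listed at 0 in all 3 libraries of 769-P, and CA12 overlapped between the lines. The prostate markers KLK3, KLK2, HOXB13, TMPRSS2 and FOLH1 were at 0.312 FPKM or below in every library. None of the 6 blood cell and 4 endothelial markers passed the filter. The defining genes PTPRC, CD3E and PECAM1 were at 0.133 FPKM or below in every library, and CD14 reached 1.59, HBB 0.95 and LYZ 0.451. The DU145 control library had a value above 0 at 287 of 366 olfactory receptor genes, which these cells are not known to use, and the siRNA 2 library of 769-P at 237, while the other 4 libraries had one at 3 to 5. The mean over these genes was 0.345 and 0.227 FPKM in those libraries, and this background bears on the members at the lowest levels.

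The EMT-driving factors did not lie on the same side in the 2 lines. ZEB1 was higher in 769-P, SNAI1 was higher in DU145, and SNAI2 overlapped between them. ZEB2 and TWIST1 were near the lower limit in both lines. In the comparison of all 3 libraries of a line with the 3 of the other, 3 of the 4 regulators tested were called by limma at an adjusted p of at most 0.05, where 46.4% of all genes tested were called. Of these, 2 (SNAI1 and ESRP2) were higher in DU145, as were 29.9% of all genes, and 1 (ZEB1) was higher in 769-P, as were 16.5%. The samples were not said to come from separate cultures, so these p-values measure the spread between the 3 libraries of a line, which were differently treated, and not that between cultures of a condition. In bulk RNA, fewer cells that express a gene and less RNA per cell cannot be told apart.

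**Figure D1:**
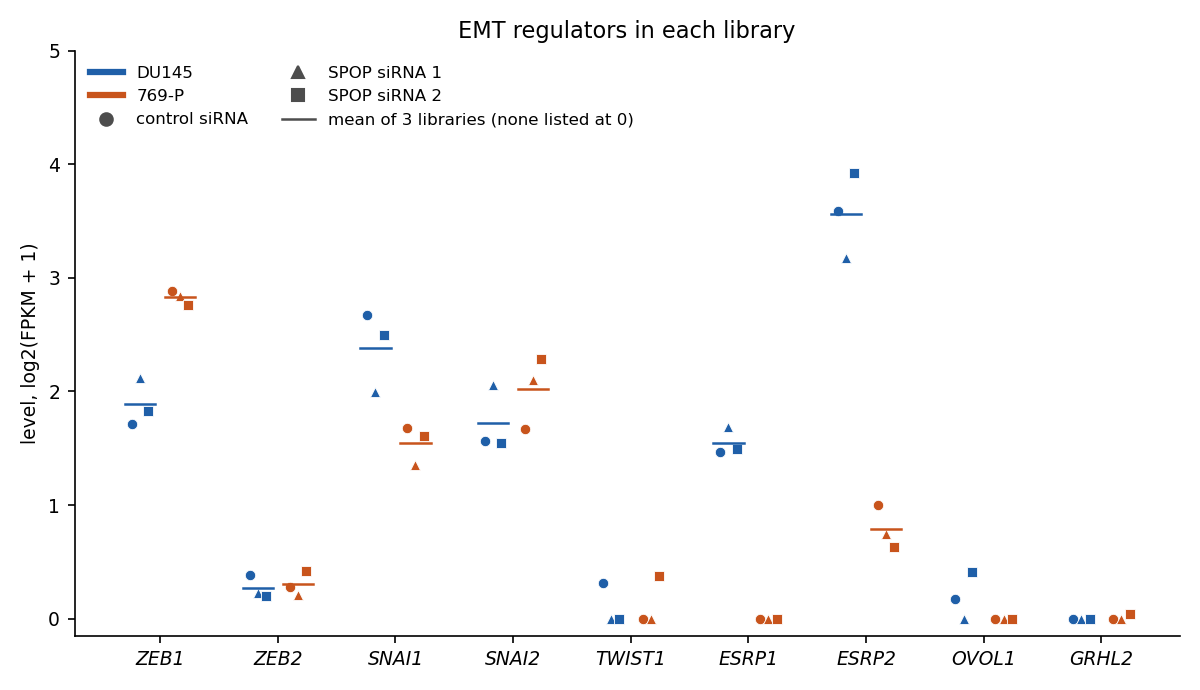
Level of each EMT regulator in each of the 6 libraries, on the log2(FPKM + 1) scale, with DU145 in blue and 769-P in orange. Symbols mark the siRNA and horizontal lines the mean of the 3 libraries of a line, drawn where none is listed at 0. The lines are separated for ZEB1, SNAI1, ESRP1 and ESRP2, and overlap for ZEB2, SNAI2, TWIST1, OVOL1 and GRHL2.

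ZEB1 (chromosome 10, 31607424 to 31818742 on the plus strand of GRCh37, protein-coding) was the regulator at the highest level in 769-P. It stood at 6.39 FPKM in the 769-P control, 6.17 with siRNA 1 and 5.77 with siRNA 2. In DU145 the corresponding values were 2.28, 3.35 and 2.54 FPKM. Every 769-P library was above every DU145 library, and 56.3% of all genes tested had lines that did not overlap in this way. The mean was 6.11 ± 0.314 FPKM in 769-P and 2.72 ± 0.561 in DU145 (SD, n = 3 libraries), a ratio of 2.24. The DU145 minus 769-P difference was -0.94 (standard error 0.18, 95% interval -1.36 to -0.52, adjusted p = 0.00287 from limma). The antisense gene ZEB1-AS1 overlaps ZEB1 on the other strand and was also higher in 769-P (2.29, 2.82 and 1.4 FPKM) than in DU145 (0.973, 1.2 and 1.37 FPKM). Strand was not stated for these libraries, so reads in the stretch the pair share cannot be told apart.

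ZEB2 (chromosome 2, 145121931 to 145278624, minus strand), the close relative of ZEB1, was low throughout. It had 0.305, 0.172 and 0.145 FPKM in the DU145 control, siRNA 1 and siRNA 2 libraries and 0.214, 0.156 and 0.337 in those of 769-P. The lines overlapped. The highest value of each line came from the library with olfactory receptor background, and its part in those values was not tested. ZEB1 made up 88.2% to 97.5% of the sum of the 2 ZEB genes in every library. They share no stretch of 100 bases, the read length, in the GENCODE transcripts, and neither do any 2 members of the SNAI, TWIST, ESRP, OVOL or GRHL families.

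SNAI1 (chromosome 20, 48599517 to 48605423, plus strand), the factor known as Snail, showed the opposite order to ZEB1. DU145 had 5.38 FPKM in the control, 2.98 with siRNA 1 and 4.64 with siRNA 2, and 769-P had 2.21, 1.55 and 2.05. The 2 lines did not overlap, although the lowest DU145 library and the highest 769-P library lay close together. The mean was 4.33 ± 1.23 FPKM in DU145 and 1.93 ± 0.343 in 769-P (SD, n = 3), a ratio of 2.24. The difference was 0.84 (standard error 0.23, 95% interval 0.33 to 1.36, adjusted p = 0.0143 from limma). This call did not hold everywhere. The adjusted p was 0.053 without the 769-P siRNA 1 library, 0.051 without the DU145 control and 0.0526 without the DU145 siRNA 2 library. It was 0.131 after quantile normalization, with a difference of 0.47, and 0.0539 with library medians centred.

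SNAI2 (chromosome 8, 49830157 to 49834299, minus strand), known as Slug, had 1.96, 3.16 and 1.93 FPKM in the DU145 control, siRNA 1 and siRNA 2 libraries. The values in 769-P were 2.19, 3.28 and 3.87 FPKM. The lines overlapped, and the difference of -0.30 (95% interval -0.83 to 0.24, adjusted p = 0.334 from limma) did not pass the test. After quantile normalization it was -0.71 with an adjusted p of 0.0454. The balance of the SNAI genes, with the third relative SNAI3, is shown in the plot of the families. SNAI1 exceeded SNAI2 by 2.75 and 2.41 times in the DU145 control and siRNA 2 libraries and was at 0.942 times SNAI2 with siRNA 1. In 769-P the ratio was 1.01 in the control and 0.472 and 0.528 with the siRNAs. SNAI3 was at 0.128 to 1.05 FPKM over the 6 libraries and added at most 13.3% to the family sum.

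TWIST1 (chromosome 7, 19060614 to 19157259, minus strand), a basic helix-loop-helix factor, had a value in 2 libraries, 0.24 FPKM in the control of DU145 and 0.3 with siRNA 2 in 769-P, and was listed at 0 in the other 4. Those 2 libraries are the ones with values at olfactory receptor genes, and the part of this background was not tested. Its relative TWIST2 differed sharply between the lines. It had 18.8, 24.4 and 17.4 FPKM in the DU145 control, siRNA 1 and siRNA 2 libraries and was listed at 0 in all 3 of 769-P (adjusted p = 9.41e-07 from limma). TWIST2 thus made up at least 98.7% of the TWIST sum in each DU145 library, and it stood above each of the 9 regulators there.

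**Figure D2:**
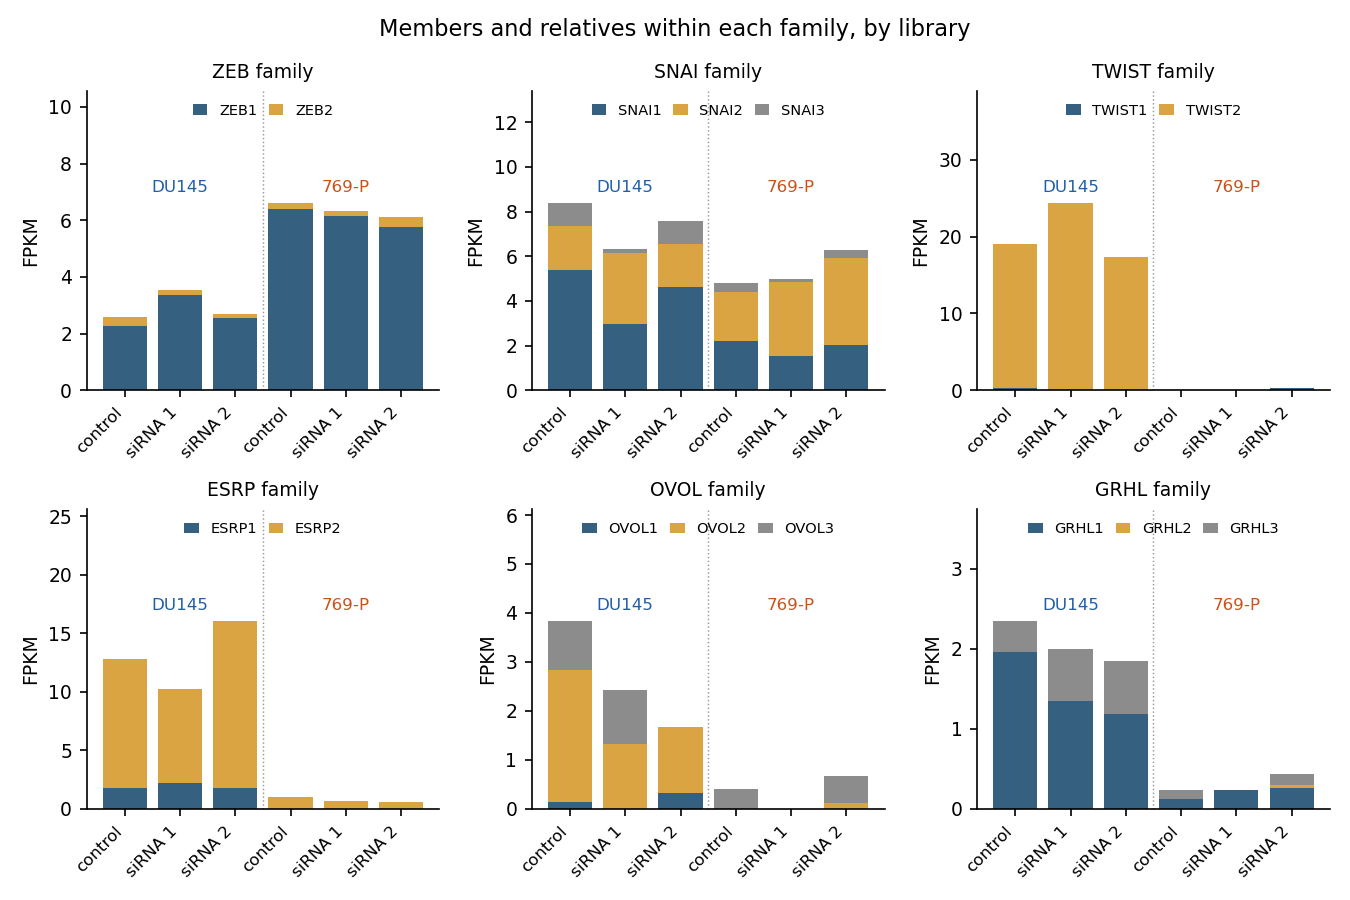
Stacked levels in FPKM of the members of the ZEB, SNAI, TWIST, ESRP, OVOL and GRHL families in each library, with DU145 to the left and 769-P to the right of the dotted line. TWIST2, ESRP2, OVOL2 and GRHL1 make up most of their family's sum in the DU145 control library.

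Of the epithelial regulators, the 2 ESRP genes separated the lines. ESRP2 (chromosome 16, 68262936 to 68272005, minus strand) had 11.1, 8.02 and 14.2 FPKM in the DU145 control, siRNA 1 and siRNA 2 libraries. In 769-P it had 0.997, 0.675 and 0.549 FPKM. The lowest DU145 library was far above the highest of 769-P. The mean was 11.1 ± 3.08 FPKM in DU145 and 0.741 ± 0.231 in 769-P (SD, n = 3), a ratio of 15 on the FPKM scale. The difference on the log2(FPKM + 1) scale was 2.77 (standard error 0.23, 95% interval 2.25 to 3.30, adjusted p = 2.23e-05 from limma). NFATC3 overlaps ESRP2 on the other strand and had 6.69 to 9.35 FPKM in DU145 and 3.32 to 5.85 in 769-P. With strand not stated, reads in the shared stretch cannot be told apart.

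ESRP1 (chromosome 8, 95653302 to 95719694, plus strand) had 1.77, 2.21 and 1.81 FPKM in the same order in DU145 and was listed at 0 in every 769-P library. Its mean over the 6 libraries was 0.965 FPKM, just under the filter. With a filter of 0.5 FPKM, chosen after this mean was seen, ESRP1 passed the test (adjusted p = 0.000122 from limma). There 30.9% of all genes tested were higher in DU145. ESRP1 reaches that filter through the DU145 libraries alone, so this p-value adds no support to the difference in its values. ESRP2 made up 78.4% to 88.7% of the ESRP sum in DU145. The values of both splicing factors were higher in DU145, with ESRP2 at the higher level of the pair and ESRP1 at a listed 0 in 769-P.

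OVOL1 (chromosome 11, 65554534 to 65564685, plus strand), a zinc finger repressor, had 0.127 FPKM in the DU145 control, 0 with siRNA 1 and 0.329 with siRNA 2, and was listed at 0 in 769-P. The control value was below the olfactory receptor mean of that library. In the siRNA 2 library, where the olfactory receptor mean was 0.00535 FPKM, the OVOL1 value was above it. The relative OVOL2 was higher, with 2.72, 1.32 and 1.34 FPKM in DU145 and 0, 0 and 0.108 in 769-P, and the lines did not overlap.

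GRHL2 (chromosome 8, 102504667 to 102681954, plus strand), a grainyhead factor, was listed at 0 in all 3 DU145 libraries. Its single value, 0.0299 FPKM in the 769-P siRNA 2 library, was below the olfactory receptor mean there. Of its neighbours in the annotation, ZNF706 before it had at least 11.9 FPKM in each DU145 library. NCALD after it had 0.214, 0.0907 and 0 FPKM there, and RRM2B beyond had at least 3.45. GRHL1, a relative of GRHL2, had 1.96, 1.35 and 1.19 FPKM in DU145 and 0.124, 0.233 and 0.264 in 769-P. GRHL1 thus made up 64.2% to 83.6% of the GRHL sum in DU145, and GRHL3 the rest.

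In order of level, DU145 had ESRP2 first, then SNAI1, ZEB1, SNAI2 and ESRP1, and then ZEB2, OVOL1, TWIST1 and GRHL2. ESRP2 stood clear of SNAI1, and ESRP1 stood clear of ZEB2. The ranges of all other neighbours in this order overlapped. In 769-P the order was ZEB1, SNAI2, SNAI1, ESRP2, ZEB2, TWIST1, GRHL2, and then ESRP1 and OVOL1 at 0. The ranges of SNAI2 and SNAI1 overlapped, those of ZEB1 and SNAI2 did not, and ESRP2 was separated from SNAI1 above it and from ZEB2 below it. The summed level of the 5 EMT-driving factors was 9.25 to 10.2 FPKM in DU145 and 11 to 12.3 in 769-P. That sum leaves out TWIST2, which alone had 17.4 to 24.4 FPKM in DU145 and was listed at 0 in 769-P. The summed level of the 4 epithelial regulators was 10.2 to 16.3 FPKM in DU145 and 0.579 to 0.997 in 769-P. The ratio of ESRP2 to ZEB1 was 4.86, 2.39 and 5.58 in the DU145 control, siRNA 1 and siRNA 2 libraries, and that of ZEB1 to ESRP2 was 6.41, 9.13 and 10.5 in those of 769-P.

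The other genes of the 2 programs were then compared. Of 15 further transcription factors of the mesenchymal program, 10 were tested, and 3 were higher in DU145 and 4 in 769-P. Over all genes tested, 29.9% and 16.5% were. The median difference of these factors was -0.42, beside 0.16 over all genes tested. The largest called differences were in FOXC2, a forkhead factor, TWIST2, and PRRX2, a homeobox factor. FOXC2 had 1.67, 0.202 and 0 FPKM in DU145 and 45, 80.4 and 41.4 in 769-P (adjusted p = 1.11e-05 from limma). PRRX2 was the reverse, with 16.1, 12.2 and 14.3 FPKM in DU145 and 0.185, 0 and 0 in 769-P (adjusted p = 1.38e-06 from limma). Of 12 further factors of the epithelial program, 4 were tested, and FOXA1, KLF5 and ELF3 were higher in DU145 whereas KLF4 was higher in 769-P. FOXA1, a pioneer factor of prostate and other epithelia, had 27.9 ± 8.45 FPKM in DU145 and 2.93 ± 0.17 in 769-P (SD, n = 3), a difference of 2.83 (adjusted p = 2.44e-05 from limma). KLF5 differed by 1.74 (adjusted p = 0.000171 from limma), ELF3 by 0.66 (adjusted p = 0.0322 from limma) and KLF4 by -0.68 (adjusted p = 0.0375 from limma). After quantile normalization ELF3 did not pass (adjusted p = 0.0816).

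Among 35 epithelial surface and junction genes, 30 were tested, of which 18 were higher in DU145, 5 were higher in 769-P and 7 did not pass. Over all genes tested, 29.9% were higher in DU145 and 16.5% in 769-P. The median difference was 1.39, beside 0.16 over all genes tested. CDH1, which encodes E-cadherin and is the classical target of the SNAI and ZEB repressors, had 8.87, 15.9 and 17.7 FPKM in the DU145 control, siRNA 1 and siRNA 2 libraries and 0.046, 0 and 0.0977 in those of 769-P. Its difference was 3.80 (adjusted p = 6.38e-06 from limma). Large differences in the list were those of CDH3, which encodes P-cadherin (5.55, adjusted p = 2.15e-06 from limma) and SPINT1, a protease inhibitor (4.72, adjusted p = 3.99e-06 from limma). The list was not uniform. AP1M2, an adaptor subunit for basolateral sorting, had 31.5, 28.1 and 44.6 FPKM in 769-P and 1.37, 0.579 and 0.392 in DU145, a difference of -4.34 (adjusted p = 3.19e-06 from limma). CLDN4, a tight junction claudin, was at 256 to 319 FPKM in 769-P and at 38.2 to 53.1 in DU145 (difference -2.68, adjusted p = 5.81e-06 from limma), and CLDN4, AP1M2, MAL2, INADL and MYO5B were the 5 genes higher in 769-P, INADL, MAL2 and MYO5B being named after their values were seen.

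Of 26 mesenchymal matrix and cytoskeleton genes, 25 were listed and 12 tested. None of the 12 was higher in DU145 and 7 were higher in 769-P, where 29.9% and 16.5% of all genes tested were. The median difference was -0.66. VIM, which encodes the intermediate filament vimentin, was at 583, 635 and 541 FPKM in DU145 and at 2499, 3692 and 3517 in 769-P (difference -2.44, adjusted p = 6.86e-06 from limma). Large differences were also those of CDH2, which encodes N-cadherin (-6.00, adjusted p = 5.29e-07 from limma), and FN1, which encodes fibronectin (-4.50, adjusted p = 2.9e-05 from limma). DU145 thus had VIM at 541 FPKM or above together with more CDH1 and less CDH2 than 769-P. In 769-P, VIM and CDH2 were higher than in DU145 and CDH1 was near 0. Of the remaining 13 listed genes, which were below the filter, COL5A2 (0.838 to 2.84 FPKM) and LOX (0.943 to 2.84 FPKM) were higher in every DU145 library than in any of 769-P (at most 0.267 and 0.256 FPKM). Those 2 genes were picked out after their values were seen. With the filter of 0.5 FPKM both were called higher in DU145 (adjusted p = 0.00676 for COL5A2 and 0.00644 for LOX from limma). Like ESRP1, they reach that filter through DU145 alone. That no tested mesenchymal gene was higher in DU145 thus depends on the filter.

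**Figure D3:**
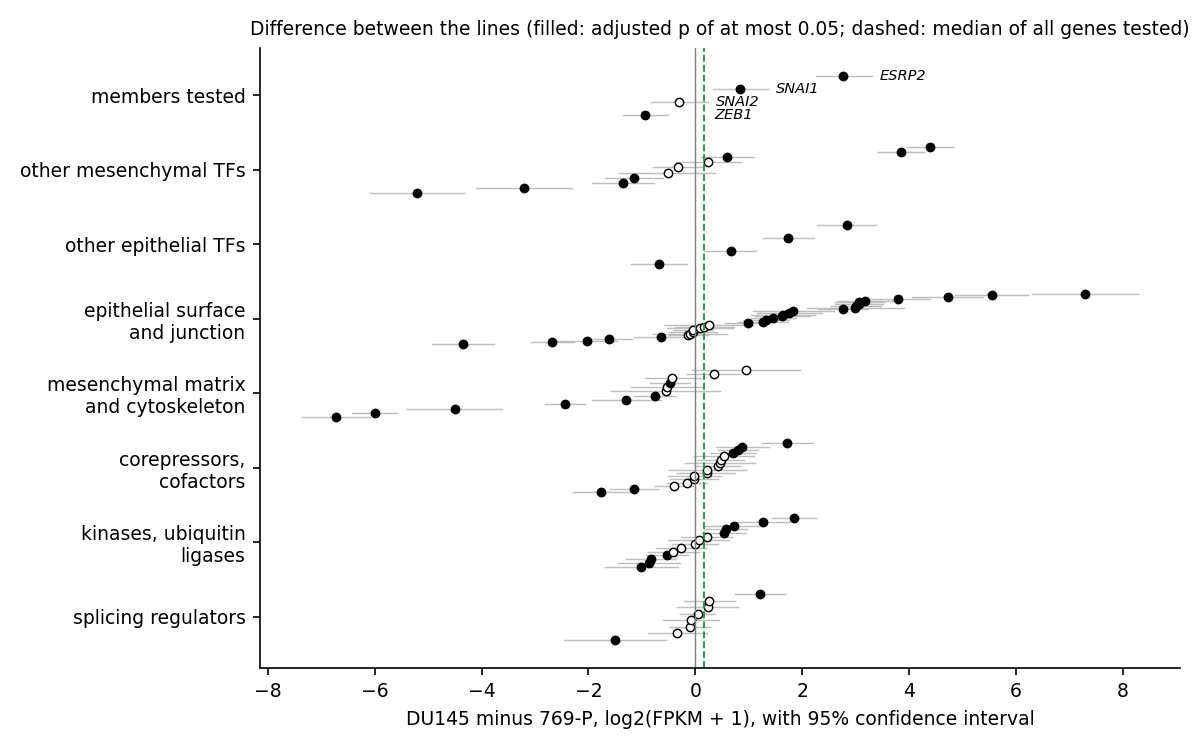
Difference between DU145 and 769-P on the log2(FPKM + 1) scale for the 4 regulators tested and the tested genes of 7 lists. Points to the right are higher in DU145, filled points have an adjusted p of at most 0.05 in limma, horizontal lines are 95% intervals, and the dashed line is the median of all genes tested, 0.16. Epithelial surface genes lie mostly to the right and mesenchymal matrix genes mostly to the left, with AP1M2 and CLDN4 the furthest left of the epithelial list.

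The share of genes called higher in DU145 depended on the scaling. It was 64.4% of the 5509 genes called (3550 higher in DU145 and 1959 in 769-P), 48.6% of the 5685 called after quantile normalization and 49.7% of the 5670 called with library medians centred. The median difference over all genes tested moved from 0.16 to -0.05 and -0.04. After quantile normalization 17 of the 30 epithelial surface genes were higher in DU145 and 6 in 769-P, and 0 and 7 of the 12 mesenchymal genes were. The 14 kinases and ubiquitin ligases described further on went from 5 higher in DU145 and 4 in 769-P to 2 and 4, and the 4 regulators from 2 and 1 to 1 and 2. ZEB1 (-1.27) and ESRP2 (2.37) kept their calls.

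The sequence read by the ZEB and SNAI repressors was then looked for in the promoters. The E-box CAGGTG and its reverse complement CACCTG, which can never be the same site, were searched in the 250 bases before each transcription start in RefSeq (GRCh38.p14, a later build than that of the files). Factors such as TCF3 can bind the same letters. Of the 35 epithelial surface genes, 22 had a promoter in the table, and CDH1 was not among them. The motif was in 16 of their 30 windows (53.3%), whereas it was in 17.5% of all windows. Of these 22 genes, 15 (68.2%) held it, whereas 5635 of all 27305 genes (20.6%) did. The motif was present in 5 of 9 such genes higher in DU145, in 2 of 3 higher in 769-P, in 5 of 6 that did not pass the test and in 3 of 4 below the filter, so genes with the motif lay on both sides of the difference. Of 13 mesenchymal matrix genes with a promoter, 3 (23.1%) held it. Shown here, with both forms of the motif in capitals, are the windows of CLDN7 and CRB3, which were higher in DU145 and hold 4 and 5 copies, and of AP1M2, which was higher in 769-P and holds 3. They lie at chr17:7262479-7262728 (minus strand), chr19:6464021-6464270 (plus strand) and chr19:10587313-10587562 (minus strand), and each is written 5′ to 3′ along its gene.
CLDN7: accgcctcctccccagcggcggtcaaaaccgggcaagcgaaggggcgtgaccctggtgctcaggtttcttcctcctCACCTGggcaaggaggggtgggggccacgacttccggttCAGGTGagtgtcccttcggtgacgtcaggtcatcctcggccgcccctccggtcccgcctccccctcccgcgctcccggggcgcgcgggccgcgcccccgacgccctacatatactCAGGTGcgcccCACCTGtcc
CRB3: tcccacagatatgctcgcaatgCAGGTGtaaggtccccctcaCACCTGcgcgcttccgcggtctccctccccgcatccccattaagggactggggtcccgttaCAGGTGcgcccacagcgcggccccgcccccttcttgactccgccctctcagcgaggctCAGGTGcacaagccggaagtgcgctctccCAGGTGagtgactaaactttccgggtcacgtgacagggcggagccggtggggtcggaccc
AP1M2: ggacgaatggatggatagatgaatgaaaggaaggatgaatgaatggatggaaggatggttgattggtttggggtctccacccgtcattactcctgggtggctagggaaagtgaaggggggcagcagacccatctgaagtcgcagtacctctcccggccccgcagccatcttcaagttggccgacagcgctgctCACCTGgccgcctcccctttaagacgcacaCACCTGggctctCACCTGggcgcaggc

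In CLDN7, a claudin of epithelial tight junctions, the motifs include a pair at the end of the window, just before the start. CLDN7 had 8.59, 5.96 and 7.76 FPKM in the DU145 libraries and was listed at 0 in every 769-P library (adjusted p = 4.82e-06 from limma). CRB3, a polarity protein, had 25, 31.5 and 33.7 FPKM in DU145 and 14.5, 17 and 12.7 in 769-P, a smaller difference of 0.98 (adjusted p = 0.0025 from limma). The AP1M2 window has 3 copies in its last part and the gene differed the other way. A match is a run of letters and not evidence of binding.

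The partners of these factors were counted against the 46.4% called over all genes. All 16 corepressors and cofactors were tested, and 4 were higher in DU145 and 2 in 769-P, with a median difference of 0.32. HDAC1, a histone deacetylase recruited by SNAI1, had 27.4, 48.8 and 44.7 FPKM in DU145 and 113, 147 and 149 in 769-P (difference -1.76, adjusted p = 0.000311 from limma). RCOR1, the CoREST scaffold, was higher in DU145 (1.72, adjusted p = 0.0002 from limma), and SMAD4, the common mediator of TGF-beta signals, was higher in 769-P (-1.15, adjusted p = 0.00143 from limma). CTBP1 and CTBP2, corepressors of the ZEB factors, and MTA3 were the others higher in DU145. Of 14 kinases and ubiquitin ligases that act on SNAI, ZEB or TWIST proteins, 5 were higher in DU145 and 4 in 769-P, with a median difference of 0.03. PAK1, a kinase of SNAI1 (1.85, adjusted p = 5.74e-05 from limma), FBXO45, a ubiquitin ligase subunit (1.26, adjusted p = 0.00149 from limma), and MDM2 (-1.01, adjusted p = 0.0225 from limma) differed most.

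Among 8 splicing regulators beside the ESRP genes, MBNL1 was higher in DU145 (difference 1.21, adjusted p = 0.00127 from limma) and RBM47 was higher in 769-P (-1.50, adjusted p = 0.0165 from limma), and the other 6 did not pass. Of 4 genes whose transcripts the ESRP proteins are known to splice, CD44 was at 92.1 to 144 FPKM in 769-P and at 10.4 to 20.7 in DU145 (-2.83, adjusted p = 4.47e-05 from limma). ENAH did not pass (0.49, adjusted p = 0.0974 from limma), FGFR2 was below the filter, and the fourth was not analysed here. Gene-level FPKM does not separate the spliced forms of these genes. The hairpin genes of microRNAs that target ZEB1 and ZEB2, MIR200A, MIR200B, MIR429, MIR200C and MIR141, were listed at 0 in every library. Mature microRNAs are not captured by polyadenylated RNA-Seq, so nothing is read from these values.

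The second question was whether the regulators changed when SPOP was knocked down. In neither line was any of the 4 regulators tested past 1.5-fold the same way with both siRNAs. Of all genes tested, 5.91% were in DU145 and 7.32% in 769-P. None of the regulators below the filter was past it either, but for most of them a decrease could not have been. The controls of ZEB2, TWIST1, OVOL1 and GRHL2 were at 0.305 FPKM or below in both lines. From such a level even a fall to 0 is less than 1.5-fold on the log2(FPKM + 1) scale. None of the 4 tested by limma was called in either line, where 0.135% and 0.101% of all genes were, and none had an unadjusted p under 0.05. Each control is a single library, so the test took its spread from the pairs of siRNA libraries, with 2 residual degrees of freedom. SPOP itself, at -2.15 from the control in DU145 and -2.35 in 769-P, had adjusted p-values of 0.134 and 0.0948 from limma and did not pass.

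In DU145, siRNA 1 and siRNA 2 gave unequal values, and whether they differ was not tested. SNAI1 was at 55.3% of the control with siRNA 1 and at 86.2% with siRNA 2, a change of -0.68 and -0.18 (mean -0.43, 95% interval -1.23 to 0.37). SNAI2 was at 161% with siRNA 1 and at 98.5% with siRNA 2, a change of 0.49 and -0.01 (mean 0.24, 95% interval -0.55 to 1.02). With siRNA 1 the 2 SNAI genes therefore came to nearly the same level, 2.98 and 3.16 FPKM. ZEB1 was 0.41 and 0.11 above its control (mean 0.26, 95% interval -0.41 to 0.93). ESRP2 lay on opposite sides of its control, at -0.42 and 0.33 (mean -0.04, 95% interval -0.98 to 0.89). Of the genes below the filter, ESRP1 was at 125% and 103% of its control and ZEB2 at 56.5% and 47.7%, from a control of 0.305 FPKM in the library with the higher olfactory receptor background.

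In 769-P, SNAI2 lay furthest from its control among the regulators. It was at 149.9% of the control with siRNA 1 and at 177% with siRNA 2, a change of 0.42 and 0.61 on the log2(FPKM + 1) scale (mean 0.52, 95% interval -0.27 to 1.30, adjusted p = 0.739 from limma). The value with siRNA 1 was under the 1.5-fold line. ESRP2 was at 67.7% and 55.1% of a control of 0.997 FPKM, a change of -0.25 and -0.37 (mean -0.31, 95% interval -1.24 to 0.62). SNAI1 was at -0.33 and -0.07 from its control and ZEB1 at -0.04 and -0.13, again with siRNA 1 first. ESRP1 and OVOL1 were listed at 0 in all 3 libraries. The median change over all genes tested was 0.09 in DU145 and -0.03 in 769-P.

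**Figure D4:**
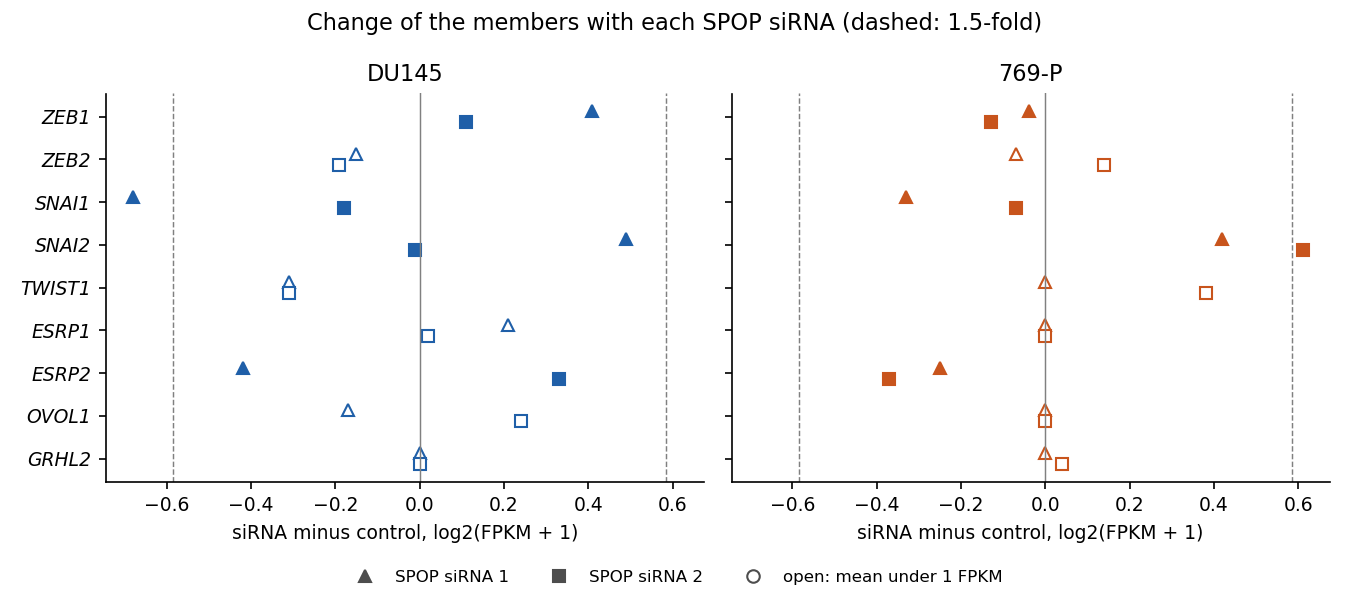
Change of each regulator with SPOP siRNA 1 (triangles) and siRNA 2 (squares) against the control of the same line, on the log2(FPKM + 1) scale, with DU145 on the left and 769-P on the right. Dashed lines mark 1.5-fold and open symbols genes with a mean under 1 FPKM. No regulator has both symbols beyond the same dashed line, and ESRP2 has its symbols on opposite sides of 0 in DU145.

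The difference of the siRNA change between the lines was tested as an interaction. None of the 4 regulators was called by limma and none had an unadjusted p under 0.05, where 0.169% of all genes tested were called. The differences (DU145 minus 769-P) were 0.35 for ZEB1 (95% interval -0.60 to 1.29), -0.23 for SNAI1 (-1.36 to 0.91), -0.28 for SNAI2 (-1.39 to 0.83) and 0.27 for ESRP2 (-1.05 to 1.59). These intervals reach past a log2 unit in at least 1 direction, so changes of that size could not be told from none. In a fit that pairs the lines through a replicate block of siRNA number, 8 genes were called in this comparison in place of 20, none of them a regulator.

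Effector genes of the 2 programs were counted in the same way. Of the 30 epithelial surface genes tested, 3 were past 1.5-fold higher and 1 lower with both siRNAs in DU145, and 1 higher and 1 lower in 769-P. Over all genes tested, 4.72% were higher and 1.19% lower in DU145, and 3.6% and 3.73% in 769-P. CDH1 was at 8.87 FPKM in the DU145 control, 15.9 with siRNA 1 and 17.7 with siRNA 2, a change of 0.78 and 0.92 (adjusted p = 0.769 from limma). CDH3 was at 35.9, 55.5 and 84.5 FPKM in the same order (adjusted p = 0.798 from limma). BSPRY was the gene that was lower, at 4.07, 1.69 and 1.86 FPKM. In 769-P, where CDH1 stayed near 0, JUP, which encodes plakoglobin, was at 17.6, 58.2 and 37.6 FPKM and OCLN, which encodes occludin, at 3.86, 1.83 and 1.77.

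Of the 12 mesenchymal genes tested, 5 were past 1.5-fold higher with both siRNAs in 769-P and 0 lower, with a median change of 0.50, where 3.6% of all genes tested were past it higher and 3.73% lower. In DU145 the same list had 0 past it higher and 1 lower, with a median change of 0.22, where 4.72% and 1.19% of all genes were. COL1A1, a fibrillar collagen chain, was at 1.71 FPKM in the control of 769-P and 9.68 and 7.36 with the siRNAs (adjusted p = 0.392 from limma). TAGLN, an actin-binding protein, had 1.49, 8.73 and 4.95 FPKM (adjusted p = 0.669 from limma) and MMP2, a gelatinase, had 1.08, 2.92 and 3.19 (adjusted p = 0.669 from limma). FN1 and S100A4, named after their values were seen, were the other two. In DU145 the values were 2.89, 3.77 and 3.12 FPKM for COL1A1, 6.77, 12.6 and 8.71 for TAGLN and 0.217, 0.368 and 0.391 for MMP2. S100A4 had 27, 38.9 and 46.2 FPKM there. For these genes both siRNA libraries were above the control in DU145 as well, but not past 1.5-fold with both. FN1 went both ways in DU145, with 3.84 FPKM in the control, 9.96 with siRNA 1 and 2.93 with siRNA 2. None of these genes was called by limma. At an unadjusted p under 0.05 there were 4 of the 12 mesenchymal genes in 769-P and 1 in DU145, and 3 of the 30 epithelial genes in each line, where 6.97% of all genes tested were in 769-P and 6.27% in DU145. SNAI2 and this group were thus both higher in the 769-P siRNA libraries than in the control, which is a statement about 3 libraries.

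**Figure D5:**
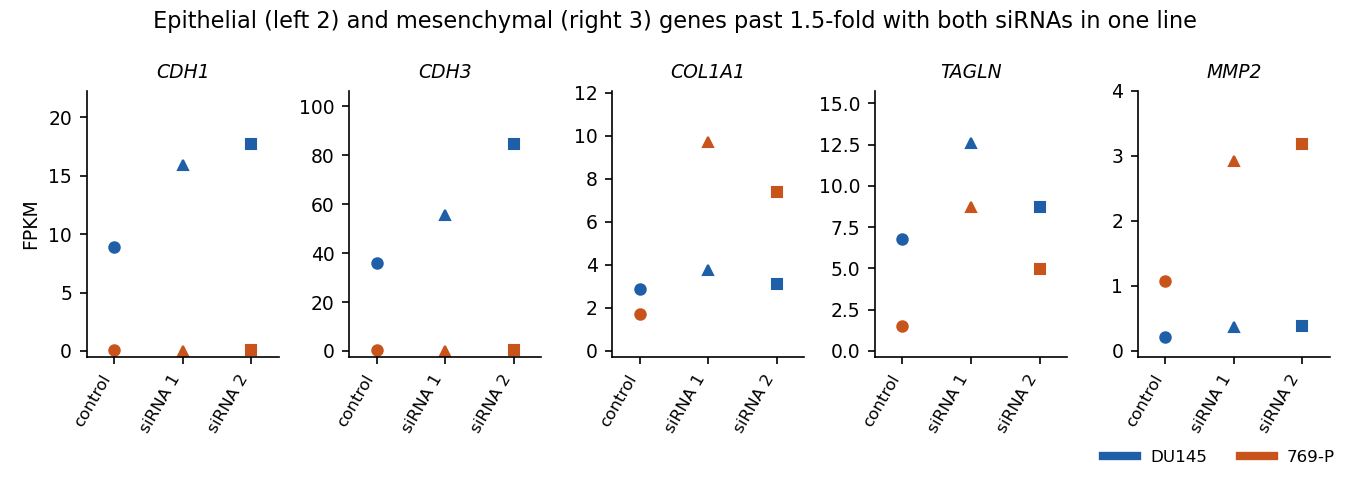
Level in FPKM of CDH1 and CDH3 (epithelial) and COL1A1, TAGLN and MMP2 (mesenchymal) in the control, siRNA 1 and siRNA 2 libraries of DU145 (blue) and 769-P (orange). CDH1 and CDH3 are higher with both siRNAs in DU145 and near 0 in 769-P. COL1A1, TAGLN and MMP2 are higher with both siRNAs in both lines, past 1.5-fold with both in 769-P. FN1, not drawn, was not higher with both siRNAs in DU145.

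The remaining lists were counted by the same rule, past which 5.91% of all genes tested were in DU145 and 7.32% in 769-P. FOXC2 was lower in DU145 (1.67, 0.202 and 0 FPKM) and TCF3, which encodes the E-box factor E2A, was higher in 769-P (37.4, 57.2 and 62.8 FPKM). Of the cofactors, HDAC1 was higher in DU145, and SUZ12, a Polycomb subunit, was lower in 769-P (12.9, 6.74 and 8.11 FPKM). Of the ubiquitin ligases, MDM2 was lower in 769-P (11.8, 7.45 and 4.77 FPKM). Of the splicing regulators, RBM47 was higher in DU145 (1.39, 6.5 and 3.42 FPKM) and HNRNPM was higher in 769-P (94.7, 166 and 155 FPKM). Of the other epithelial transcription factors, none that was tested was past the fold. OVOL2, below the filter, was lower with both siRNAs in DU145 (2.72, 1.32 and 1.34 FPKM, a change of -0.68 and -0.67). The olfactory receptor mean was 0.345 FPKM in that control, against 0.00554 with siRNA 1 and 0.00535 with siRNA 2. The part of this background in the OVOL2 change was not tested. No gene of these 6 lists was called by limma. Of their 54 genes tested, 3 in DU145 and 2 in 769-P had an unadjusted p under 0.05. Over all genes tested, 6.27% had one in DU145 and 6.97% in 769-P.

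The genes with the pattern most like each tested regulator over the 6 libraries were found by the mean absolute difference of log2(FPKM + 1). For ZEB1 they were CBWD1 (0.102), FASTKD1 (0.132) and KIAA1549 (0.133), and CBWD1 has near-identical copies among which reads can be split. For SNAI1 they were AUNIP (0.0798), C5orf34 (0.13) and C16orf93 (0.152). For SNAI2 they were BTBD9 (0.118), ANKRD49 (0.146) and CYB561D1 (0.15). ESRP2 had CNFN (0.159), ABCA7 (0.233) and CLDN23 (0.242), the last a claudin gene, at 11.5, 4.46 and 11 FPKM in DU145 and 1.31, 0.78 and 0.589 in 769-P. The nearest genes to ESRP2 were further from it than those of the other regulators were from them.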

How the data were processed

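RNA-Seq was performed on 6 libraries (2 lines, each with a control siRNA and 2 SPOP siRNAs). Paired-end reads of 100 bp were aligned by the authors to hg19 using TopHat2, and the FPKM calculated by Cufflinks for each gene was deposited. FastQC and cutadapt are also named in the submitters' processing notes. Versions and annotation are not given in the sources used here. The study's methods state 2 biological replicates, whereas the labels give 1 library per siRNA. The kit and RNA input also differ between them.

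Rows of a symbol were summed, a pseudocount of 1 was added, and the genes averaging 1 FPKM or more were tested with limma 3.58.1 (R 4.3.3, trend on mean expression, Benjamini-Hochberg). The line fit had 2 groups of 3 libraries (4 residual degrees of freedom) and the siRNA fit 4 groups (2 residual degrees of freedom). A fold call needed both siRNAs past 1.5-fold the same way. Read counts are not in the files, and depth relative to the 769-P control, read from the commonest ratio among low values, was 0.683 to 1.4.

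The siRNA numbers in the labels are shared by the lines. Deviations from the line means correlated between same-numbered libraries (0.35 for the controls, 0.325 for siRNA 1 and 0.246 for siRNA 2, across 11865 genes). Between other libraries the correlations were -0.235 to -0.0884. The numbers name the siRNA given, so these values do not show that same-numbered libraries were handled together. As 1 alternative, the numbers were taken as pairs in a fit with a replicate block. The other alternatives were a pseudocount of 0.1, a filter of 5 FPKM or none, quantile normalization, subtraction of the olfactory receptor mean, no trend, and each library left out. A filter of 0.5 FPKM, median centring and the subtraction under the fold rule in DU145 were added once the values had been seen.

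The members and lists were chosen with earlier results of these data known. Named genes were the 9 regulators, SPOP, CDH1, VIM, OVOL2, GRHL1, SNAI3 and TWIST2, in each list the 3 called genes with the largest difference between lines and up to 3 past the fold per line, and the 3 nearest genes of each tested regulator. Positions are from GENCODE on GRCh37 and promoters from RefSeq on GRCh38.p14. Some of these genes are not reported here. Other genes were named after their values were seen, among them AP1M2, CLDN4, CLDN7 and CRB3. Tables were made with pandas 2.3.3 (Python 3.11.15).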

Additional observations from a re-analysis of the deposited data

Results flagged for a closer look

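ZEB1 stood out because its siRNA libraries lay on opposite sides of the control in the 2 lines. In DU145 it was higher with both siRNAs (0.41 and 0.11 on the log2 scale) and in 769-P lower with both (-0.04 and -0.13). The difference between the lines, DU145 minus 769-P, was 0.35, and the interaction test of limma did not call it (adjusted p = 0.999, unadjusted p = 0.394). Its 95% interval ran from -0.60 to 1.29. Over the 11 alternatives tried the difference ran from 0.20 to 0.53 and was not called in any.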

How the results depend on the processing

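Between the lines, 3 regulators were called, and 2 to 4 under the alternatives (4 with ESRP1 let in by no filter or one of 0.5 FPKM, 2 without SNAI1), except a mean of 5 FPKM or more, which left ESRP2 alone of the 9 in the test (1 called). ZEB1 (-1.27 to -0.86) and ESRP2 (2.37 to 3.73) kept their calls in every alternative with a test, whereas SNAI1 lost its call in 5 of 15 (0.47 to 1.10). With the replicate block the paired fit gave 3 regulators again (ZEB1 -0.94), with 6716 genes called in all, and it changed no call of a regulator in any comparison. No regulator was called by limma for a change with siRNA under any alternative. Under the fold rule, leaving out a library gave 0 to 1 regulators in each line, SNAI1 without DU145 siRNA 2 and SNAI2 without 769-P siRNA 1, since a single siRNA is then enough. Leaving out a library also turned the direction of 4 values, none of them called. In DU145 the siRNA change ran from -0.01 (without siRNA 1) to 0.49 (without siRNA 2) for SNAI2 and from -0.42 (without siRNA 2) to 0.33 (without siRNA 1) for ESRP2. The difference of that change between the lines ran from -0.48 to 0.02 for SNAI1 and from -0.11 to 0.64 for ESRP2. Counts over all genes moved more. In DU145, limma called 16 genes in the siRNA comparison but 678 without the filter, 4 with the filter at 5 FPKM, and 0 without 769-P siRNA 1 or 769-P siRNA 2. The depth of the libraries is not known, each control is a single library, and the 95% interval of each siRNA change reaches 1.5-fold in at least 1 direction for every regulator tested.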
